A study of Mus musculus with 13 samples.

Results

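The constitutive proteasome genes were compared between *Lmna* fl/fl and *Lmna* iADKO white adipose tissue. Members were the protein-coding genes whose symbols start with Psma, Psmb, Psmc, Psmd or Psme and a digit, apart from the 3 immunoproteasome genes *Psmb8*, *Psmb9* and *Psmb10*, with at least 10 counts summed over all 13 libraries. Of 46 symbols that matched, 42 genes met the rule, among 33618 gene identifiers counted. The filter on low counts left 41 of the 42 among 16753 genes tested. *Psma8*, a testis alpha subunit with 120 counts in all, was not tested. *Psmc3ip* and *Psme3ip1* match by symbol only and are not subunits.

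Each library came from the parametrial white adipose tissue (pmWAT) of a different female mouse. The 7 control mice were *Lmna* fl/fl, with loxP sites around part of *Lmna* and no Cre, and the 6 iADKO mice were *Lmna* fl/fl with 1 copy of *Adipoq*-CreERT2, a tamoxifen-inducible recombinase expressed in adipocytes. All 13 mice received tamoxifen in corn oil at 50 mg/kg on 5 consecutive days at 12 to 14 weeks of age, and tissue was taken 2 weeks posttamoxifen. The RNA came from whole tissue, in which Cre acts in adipocytes and the other cells keep *Lmna*.

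The proteasome is the protease that degrades ubiquitin-tagged proteins. Its barrel, the 20S core, holds rings of alpha and beta subunits with the proteolytic sites on 3 of the beta subunits, and the 19S particle recognizes, unfolds and feeds in the substrate. In adipocytes, as in other cells, proteasome gene expression is known to be raised by the transcription factor NRF1 (*Nfe2l1*) when proteasome activity falls short, and inflammatory signals are known to exchange the catalytic subunits for those of the immunoproteasome.

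Between 18854223 and 19776491 reads per library were counted on genes. Library sizes were rescaled by TMM factors, at 0.892 to 1.02 for fl/fl mice and 1.05 to 1.10 for iADKO mice. *Lmna* was at 74.7 to 98.5 CPM (counts per 1000000 counted reads, after TMM; median 83.5) in fl/fl and at 80.1 to 109.0 CPM (median 96.8) in iADKO, and did not pass the test (log2 fold change 0.19 ± 0.08 SE, edgeR adjusted p = 0.0785). The count covers the whole gene, so it does not check the loss of the floxed exons, and the genotypes rest on the labels. All 5 adipocyte markers (*Adipoq*, *Plin1*, *Cidec*, *Lep*, *Pparg*) were detected in every library. Their summed level was 4954 to 8802 CPM in fl/fl and 3203 to 4922 CPM in iADKO, and all 5 fell past the threshold. Of 6 macrophage markers 5 rose, and their sum was 936 to 1804 CPM in fl/fl and 1247 to 2094 CPM in iADKO. In bulk tissue, fewer cells of a type and less RNA per cell cannot be told apart. Among fl/fl mice, mouse 5 had the lowest adipocyte and the highest macrophage sum, and among iADKO mice, mouse 6 had the highest adipocyte and the lowest macrophage sum.

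Promoters of 4 members are shown for reference, the catalytic *Psmb5* and *Psmb6*, which hold the letters of the antioxidant response element core that NRF1 is known to bind, and *Psme4* and *Psmd1*, which were among the members with the lowest fold changes. Each is the 250 bases before a RefSeq transcription start, 5′ to 3′ on the gene's strand, with exact positions on GRCm39 and TGACNNNGC (either strand) in capitals.
*Psmb5*, chr14:54855453-54855702, minus strand: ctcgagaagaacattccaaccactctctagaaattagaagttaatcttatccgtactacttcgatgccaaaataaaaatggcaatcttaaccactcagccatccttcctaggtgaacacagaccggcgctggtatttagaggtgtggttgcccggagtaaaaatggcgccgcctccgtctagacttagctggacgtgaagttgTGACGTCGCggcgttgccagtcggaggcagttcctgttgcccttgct
*Psmb6*, chr11:70415933-70416182, plus strand: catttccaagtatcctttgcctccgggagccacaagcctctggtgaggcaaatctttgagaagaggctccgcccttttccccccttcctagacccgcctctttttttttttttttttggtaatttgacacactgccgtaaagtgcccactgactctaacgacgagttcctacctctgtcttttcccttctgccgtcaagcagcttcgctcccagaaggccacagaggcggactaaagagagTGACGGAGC
*Psme4*, chr11:30721525-30721774, plus strand: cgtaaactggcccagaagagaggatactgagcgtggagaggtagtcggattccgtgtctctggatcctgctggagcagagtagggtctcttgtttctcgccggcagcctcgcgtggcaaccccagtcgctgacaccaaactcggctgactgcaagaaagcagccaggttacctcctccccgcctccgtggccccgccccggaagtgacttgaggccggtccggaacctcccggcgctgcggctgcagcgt
*Psmd1*, chr1:85992091-85992340, plus strand: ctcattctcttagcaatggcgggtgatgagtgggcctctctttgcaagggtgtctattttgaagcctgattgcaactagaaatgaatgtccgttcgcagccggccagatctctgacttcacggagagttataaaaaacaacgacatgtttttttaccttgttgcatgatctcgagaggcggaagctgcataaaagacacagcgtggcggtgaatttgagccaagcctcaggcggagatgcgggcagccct
Both matches lay near the start, their first bases 47 bases before it in *Psmb5* and 9 bases before it in *Psmb6*. In RefSeq windows of 300 bases (250 before and 50 after the start, GRCm38.p6), TGACNNNGC was found on either strand in 6 of 39 windows of 35 members (15.4%) and in 12.4% of all 32851 windows. CCAAT, the letters bound by NF-Y, was found in 14 of 39 (35.9%) and in 37.4% of all windows. The match in *Psme4* was in the 50 bases after the start, which are not printed. Both shares of the members were close to those of all windows. No window was found here for *Psma8*, *Psmb1*, *Psmb2*, *Psmb7*, *Psmc3*, *Psmd3* and *Psmd7*.

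Proteasome transcripts were, for the most part, slightly lower in iADKO pmWAT with TMM scaling, but not on total counts alone. Of 41 members tested, 12 fell past the threshold (29.3%) and 0 rose, where 16.3% of all genes tested fell and 14.1% rose (edgeR quasi-likelihood test, Benjamini-Hochberg adjusted p under 0.05 over all genes). At an unadjusted p under 0.05, 17 members were lower and 1 was higher, while 7145 of 16753 genes tested passed in either direction. With both directions pooled, the share of members passing at that level was thus near that of all genes. The all-gene shares by direction were not computed at that level, so the split of members has no such comparison. DESeq2 also called 0 members higher. The log2 fold change was negative for 34 members and positive for 7. The median over members was −0.12, beside 0.03 over all genes tested.

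Without TMM factors, 14 of 41 members were higher (34.1%, beside 44.2% of all genes) and 1 was lower (2.44%, beside 7.62%), the member median was 0.09, and the median over all genes moved from 0.03 to 0.24. The share of higher genes among all calls moved from 46.4% to 85.3%. The member median lay 0.15 below that of all genes (−0.15) under both scalings, since another scaling shifts all genes by nearly the same amount. The changes below are on the TMM scale.

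**Figure D1:**
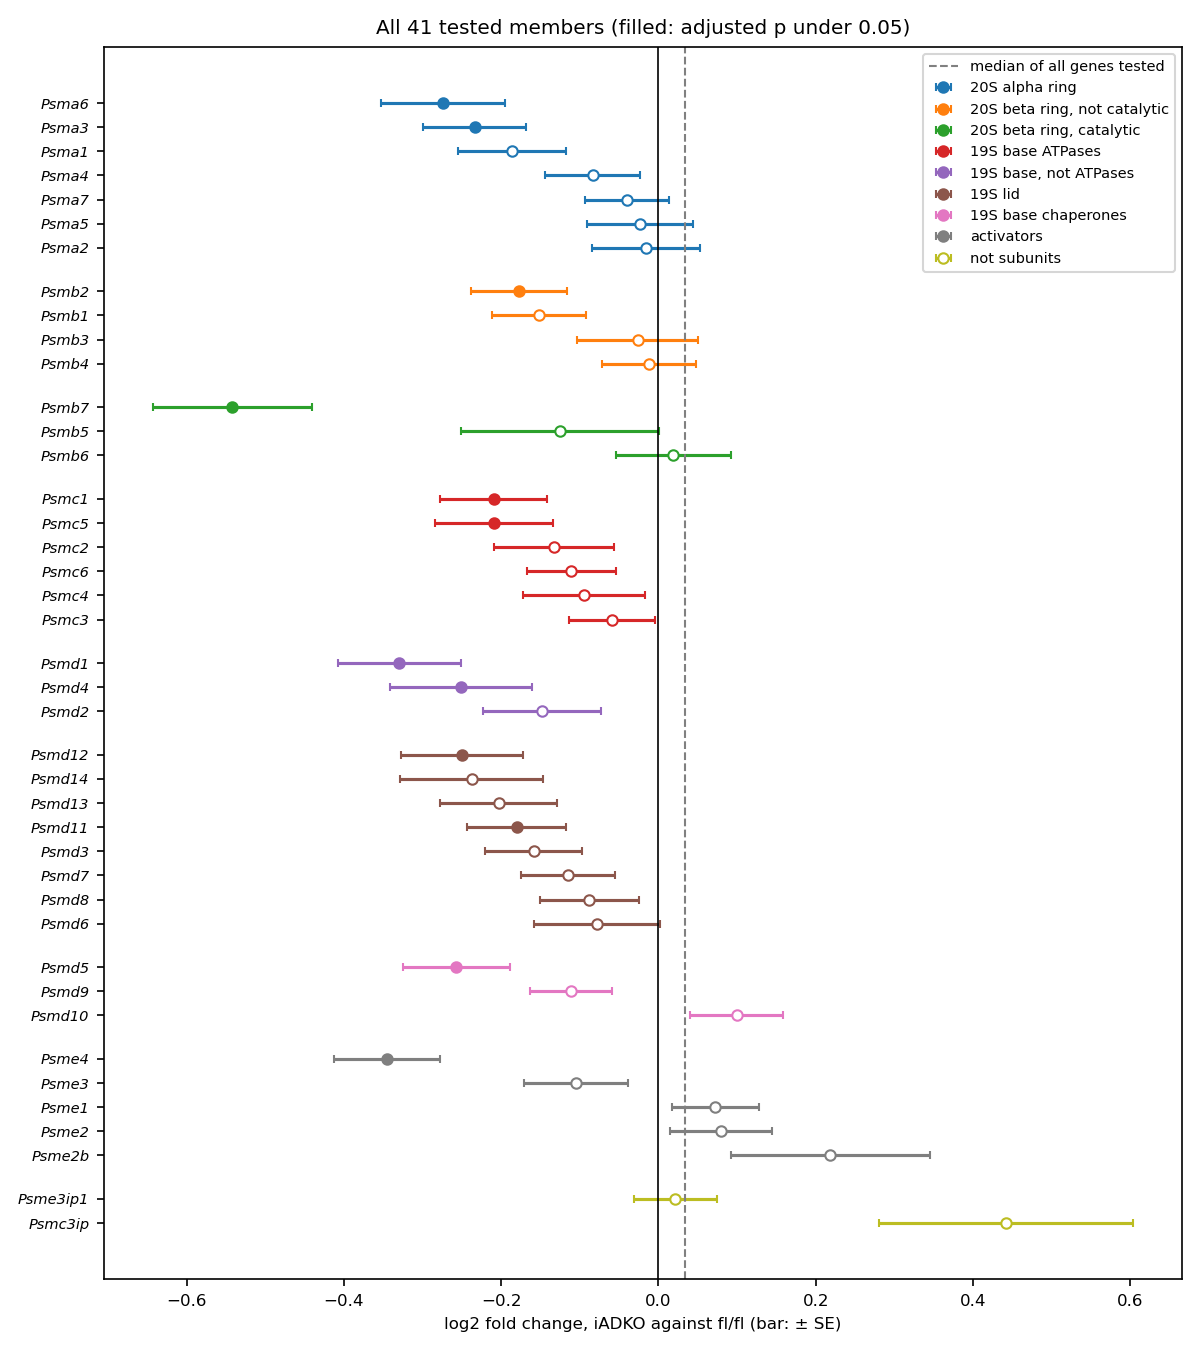
Log2 fold change of each of the 41 tested members, iADKO against fl/fl, with its standard error, grouped by role. Filled circles passed the threshold, and the dashed line is the median of all genes tested (0.03). The points run from −0.54 (*Psmb7*) to 0.44 (*Psmc3ip*), with 34 left of 0 on the TMM scale, while on total counts alone the member median is 0.09.

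Of the 14 genes of the 20S core that are expressed in every tissue, 4 fell and 10 did not pass (median −0.10). *Psmb7* encodes the beta subunit that cuts after basic residues. The gene (ENSMUSG00000026750, chr2:38478044-38534099, GRCm39) was at 98.2 to 160.9 CPM in fl/fl (median 128.9) and at 70.5 to 100.5 CPM in iADKO (median 92.6). In 5 of 6 iADKO mice it was below the lowest fl/fl mouse, mouse 5, and only iADKO mouse 6 reached into the fl/fl range. The mean was 130.9 ± 18.5 CPM (SD, n = 7) against 89.9 ± 10.6 CPM (SD, n = 6), which the fit gave as −0.54 ± 0.10 on the log2 scale (SE, edgeR adjusted p = 0.00178). It stayed lower on total counts alone, at −0.33 (adjusted p = 0.00516), and passed in every fit run.

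*Psmb7* and the gene *Nek6* lie on opposite strands and share 2817 exonic bases. *Nek6* was at 33.7 to 48.3 CPM in fl/fl (median 38.2) and at 37.1 to 55.1 CPM in iADKO (median 49.7), and rose (log2 fold change 0.31 ± 0.10 SE, edgeR adjusted p = 0.0337), the opposite direction to *Psmb7*. The libraries were strand-specific, and the strand setting of the counting is not given in the sources used here, so reads of the pair may not be fully apart. *Psmb7*'s share of all counts on the 14 core genes does not depend on library scaling. It was 9.91% to 12.3% in fl/fl (mean 10.9% ± 0.733 SD, n = 7) and 7.14% to 8.88% in iADKO (mean 8.35% ± 0.639 SD, n = 6), with no overlap. This share was examined after the values were seen and is given without a test.

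The other shares moved less. *Psma6*'s fell from 10.2% ± 0.347 (SD, n = 7) to 9.41% ± 0.323 (SD, n = 6) of the core counts, while *Psmb6* went from 7.08% ± 0.283 to 7.99% ± 0.261 (SD). Only *Psma2* also had groups that did not overlap, at 5.49% to 5.85% in fl/fl and 5.86% to 6.72% in iADKO. The other 12 shares overlapped. The shares are parts of 1 total, so a lower share of some genes raises the shares of others. A higher share thus need not be a higher level, and *Psmb6* had a log2 fold change of 0.02. Together the core genes took 0.101% to 0.124% of a fl/fl library and 0.109% to 0.12% of an iADKO library.

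**Figure D2:**
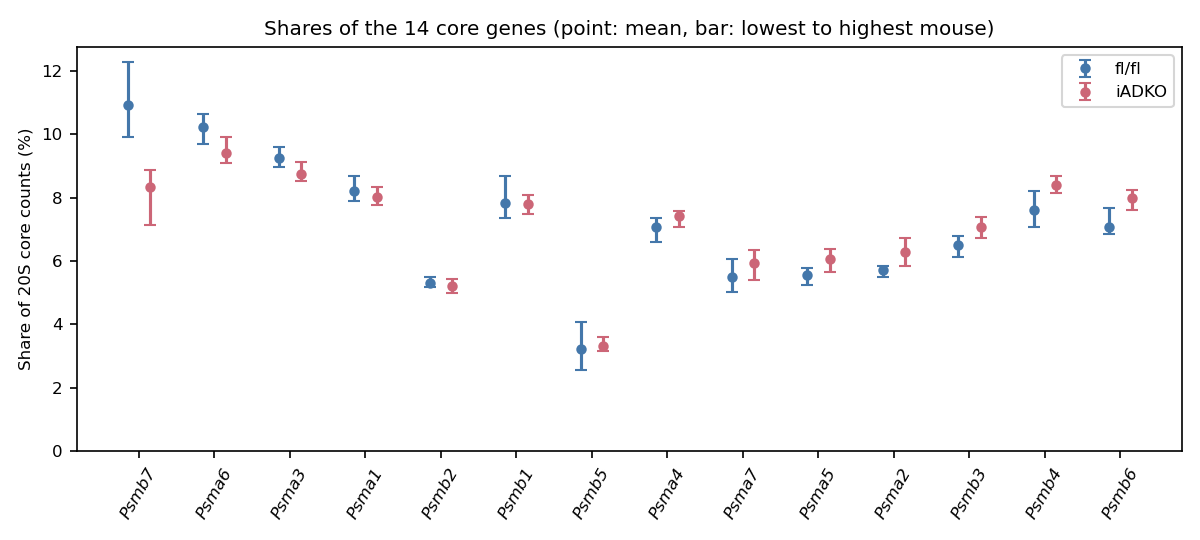
Share of each of the 14 core genes in the counts on all of them, in percent, for the 7 fl/fl and 6 iADKO mice. Points are means and bars run from the lowest to the highest mouse. *Psmb7* drops from a mean of 10.9% to 8.35%, and *Psmb6* is at 7.08% and 7.99%.

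*Psma6*, an alpha ring subunit, was at 96.1 to 137.5 CPM in fl/fl (median 123.4) and at 90.3 to 114.2 CPM in iADKO (median 102.8). Of 6 iADKO mice, 2 were below the lowest fl/fl mouse, mouse 5. Its mean fell from 122.4 ± 13.2 CPM (SD, n = 7) to 101.2 ± 8.80 CPM (SD, n = 6; log2 fold change −0.27 ± 0.08 SE, edgeR adjusted p = 0.0178). *Psma3* also fell (−0.23, adjusted p = 0.0156), as did the structural beta subunit *Psmb2* (−0.18, adjusted p = 0.0404), and on total counts alone *Psmb2* was at 0.03.

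The other catalytic subunits did not pass the test on the TMM scale, while on total counts alone *Psmb6* was called higher, as were 44.2% of all genes. *Psmb5*, whose product carries the chymotrypsin-like site, was at 25.3 to 49.7 CPM in fl/fl (median 37.4) and at 31.8 to 37.3 CPM in iADKO (median 36.2). The fl/fl mice enclosed the iADKO mice, with mice 1 and 3 highest and mouse 5 lowest. Its log2 fold change was −0.13 ± 0.13 (SE, edgeR adjusted p = 0.468). A stretch of about 350 bases of its transcript recurs in other expressed genes, among them *Osgep* (99.4% identity over 351 bases), so its reads may be split. *Psmb6*, with the caspase-like site, was at 69.6 to 101.7 CPM in fl/fl (median 83.9) and at 79.5 to 92.4 CPM in iADKO (median 85.8), within the fl/fl range (0.02 ± 0.07 SE, adjusted p = 0.864). So the 3 catalytic subunits, which are built into the core in equal number, had log2 fold changes between −0.54 and 0.02. No test of one gene against another was run here.

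**Figure D3:**
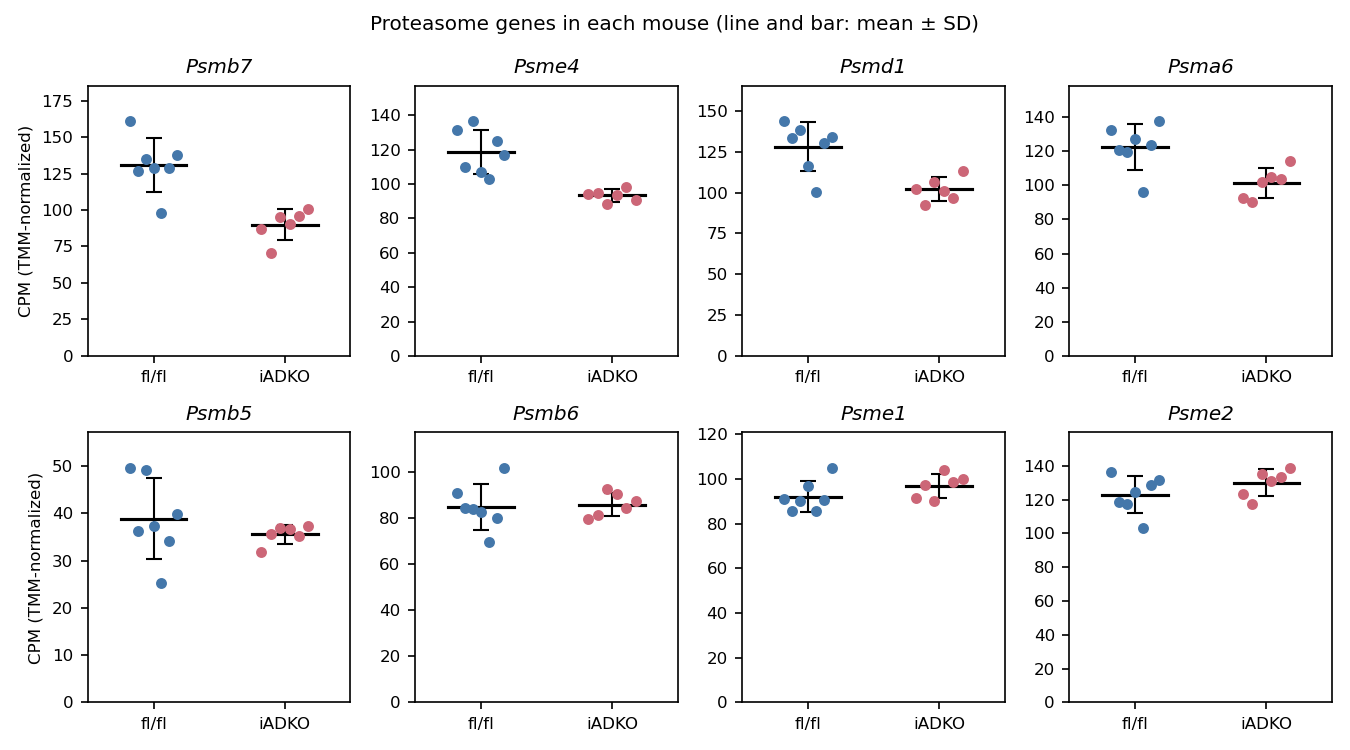
Levels of 8 members in each mouse, in TMM-normalized CPM from 0, with 1 point per mouse, a line at the mean and bars of 1 SD. *Psme4* is the member with no overlap, at 102.7 CPM or more in fl/fl and 98.2 CPM or less in iADKO. *Psmb5*, *Psmb6*, *Psme1* and *Psme2* overlap between genotypes.

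All 17 members of the 19S particle had a negative log2 fold change on the TMM scale, of which 6 passed the test and 11 did not (median −0.16). These signs did not all hold on total counts alone, where the median over all genes was higher by 0.20. There *Psmc3* was called higher, *Psmd11* was at 0.026 and *Psmc1* at −0.004. The 6 calls were lost there, since *Psmb7* was the only member called lower. In the base, which holds the ATPases that unfold substrates, *Psmc1* and *Psmc5* fell (both −0.21, edgeR adjusted p = 0.0316 and 0.0479) and the other 4 ATPases did not pass. *Psmc5* shares 1269 exonic bases with *Smarcd2* on the opposite strand, so its reads may not be fully apart. *Psmd1*, the large scaffold of the base, was at 100.6 to 143.7 CPM in fl/fl (median 133.5) and at 92.1 to 113.0 CPM in iADKO (median 101.9). Fl/fl mouse 5 lay within the iADKO range, and 2 of 6 iADKO mice lay below every fl/fl mouse. The log2 fold change was −0.33 ± 0.08 (SE, adjusted p = 0.00682). *Psmd4*, a ubiquitin receptor, also fell (−0.25, adjusted p = 0.0477), and *Psmd2*, the other scaffold, was at −0.15 (adjusted p = 0.146).

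In the lid, which removes ubiquitin chains, *Psmd12* (−0.25, edgeR adjusted p = 0.0256) and *Psmd11* (−0.18, adjusted p = 0.0429) fell and 6 members did not pass. *Psmd14*, the lid's deubiquitinase, was at −0.24 (adjusted p = 0.0616). *Psmd11* has a near copy, the noncoding *A730017L22Rik*, at 97.9% identity over 1501 bases, so its reads may be split. Of the 3 chaperones that assemble the base, *Psmd5* fell (−0.26 ± 0.07 SE, adjusted p = 0.0119), and *Psmd9* (−0.11) and *Psmd10* (0.10) did not pass.

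The activators, caps that open the core without ubiquitin, differed among themselves. *Psme4*, which encodes the large nuclear activator PA200, was at 102.7 to 136.5 CPM in fl/fl (median 116.6) and at 88.2 to 98.2 CPM in iADKO (median 94.0). Every iADKO mouse was below every fl/fl mouse. This was 1 of 41 members with no overlap in that direction (2.44%), beside 3.93% of all genes tested, and 0 members lay wholly above, beside 2.71% of all genes. The log2 fold change was −0.34 ± 0.07 (SE, edgeR adjusted p = 0.00232). On total counts alone it was −0.14 (adjusted p = 0.0639), so the call was lost and the direction was not.

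*Psme1* and *Psme2*, whose products form the interferon-inducible cap PA28, did not pass on the TMM scale. On total counts alone both were called higher, as were 44.2% of all genes. *Psme1* was at 85.7 to 105.0 CPM in fl/fl (median 90.5) and at 90.0 to 104.1 CPM in iADKO (median 97.7; 0.07 ± 0.06 SE, edgeR adjusted p = 0.336). *Psme2* was at 103.2 to 136.6 CPM in fl/fl (median 124.2) and at 117.2 to 138.9 CPM in iADKO (median 132.2; 0.08 ± 0.06 SE, adjusted p = 0.367). The genotypes overlapped for both. *Psme1* shares 2192 exonic bases with *Emc9* on the opposite strand, and *Psme2* is 99.4% identical to *Psme2b* over 795 bases, so *Psme2b* (0.22, adjusted p = 0.201) is uncertain. *Psme3*, the nuclear PA28 gamma, was at −0.10 (adjusted p = 0.244). The symbol-only *Psmc3ip*, a recombination factor, missed the threshold at 0.44 (adjusted p = 0.0508), with 359 counts in all and 1109 exonic bases shared with *Mlx*.

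Per kilobase of the Ensembl canonical transcript, the core genes were at 15.5 to 117.5 CPM per kb in fl/fl (median 58.3) and at 13.9 to 98.4 CPM per kb in iADKO (median 54.7). The highest in fl/fl were *Psma6* (117.5) and *Psmb7* (112.8), followed by *Psmb3* (100.2). In iADKO *Psmb3* (98.4) and *Psma6* (97.1) came first and *Psmb7* (77.5) followed after *Psmb6* (82.8). The 19S genes were at 25.0 to 95.1 CPM per kb in fl/fl and at 21.2 to 79.9 CPM per kb in iADKO, with *Psmd4* highest and *Psmd14* lowest in both. These levels rest on 1 transcript per gene and say nothing of protein.

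The members moved together in single mice. Fl/fl mouse 5 had the lowest fl/fl level of 37 of 41 members, and its mean log2 CPM over the members was 0.24 below the fl/fl mean (−0.24). Mice 1 and 7 were highest, at 0.13 and 0.10. Among the iADKO mice, mouse 6 was the highest for 18 of 41 members and lay at −0.02, and mice 1 and 2 were lowest, both at −0.19. The genotypes overlapped in this mean at both ends. Fl/fl mouse 5 lay below every iADKO mouse, and iADKO mouse 6 lay above fl/fl mouse 4 (−0.03) and narrowly above fl/fl mouse 6. A library's TMM factor shifts all members alike, and among fl/fl mice it was highest in mouse 5 (1.02) and lowest in mouse 1 (0.892). On total counts alone, the core genes' share was still lowest in fl/fl mouse 5 (0.101%). In fl/fl mouse 1 it was 0.117%, below iADKO mice 3 to 6 (0.118% to 0.12%) and above iADKO mice 1 and 2 (both 0.109%). Fl/fl mouse 5 and iADKO mouse 6 are the mice whose adipocyte and macrophage sums also stood apart from their groups (4954 and 1804 CPM, and 4922 and 1247 CPM). The summed level of 3 epithelial markers was also highest in iADKO mouse 6, at 134.2 CPM beside at most 49.5 CPM in the other mice. Fl/fl mouse 5 also had the highest fl/fl sums of skeletal muscle (332.6 CPM), adipose progenitor (3225 CPM) and mesothelial markers (549.6 CPM). Its endothelial (653.2 CPM) and mural (474.9 CPM) sums were the lowest of fl/fl. Its T cell, B cell, epithelial and proliferation sums were at neither end. The part of cell makeup in the lower proteasome levels was not tested.

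**Figure D4:**
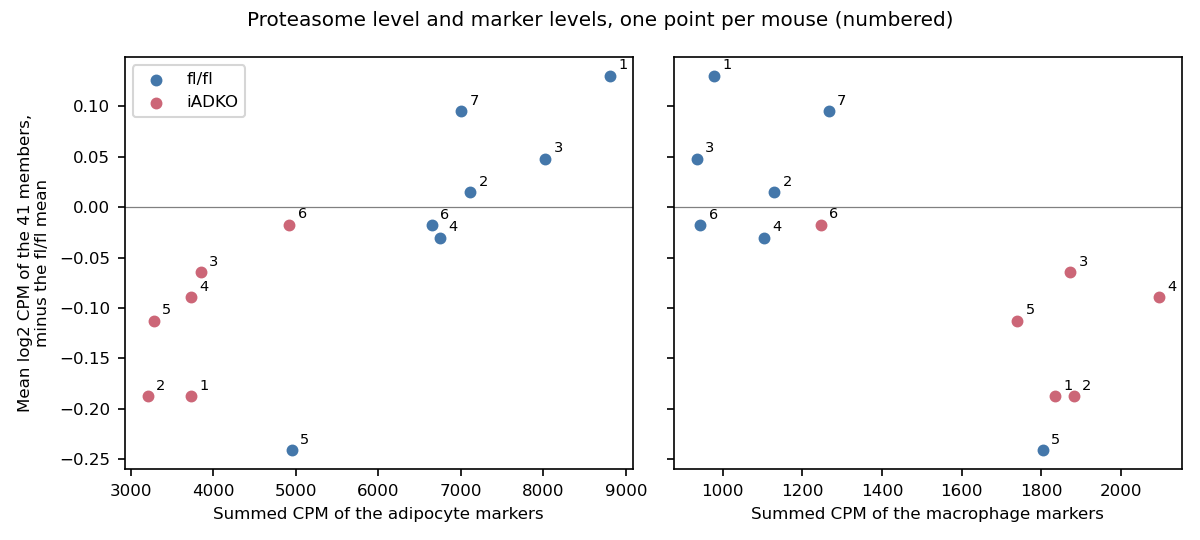
Mean log2 CPM of the 41 members in each mouse, less the fl/fl mean, against the summed CPM of 5 adipocyte markers (left) and 6 macrophage markers (right). Each numbered point is a mouse. Fl/fl mouse 5 sits at −0.24 with 4954 CPM of adipocyte markers, and iADKO mouse 6 at −0.02 with 4922 CPM.

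With fl/fl mouse 5 left out, 19 members fell (46.3%, beside 19.7% of all genes), and with iADKO mouse 6 left out, 16 fell (39.0%, beside 18.1%). With both left out, a choice made after seeing the data, 26 fell (63.4%, beside 23.3%) and 0 rose. Without fl/fl mouse 1 or mouse 2, or without iADKO mouse 2, 6 fell (14.6%), beside 13.4%, 14.8% and 13.1% of all genes, so in these fits the share of lower members was near that of all genes. Without iADKO mouse 1, 4 or 5, 7 fell (17.1%, beside 14.1%, 13.5% and 13.5%). In these fits 0 members rose, apart from *Psmc3ip* without iADKO mouse 1 or 5.

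Each library name holds an animal number, and nearby numbers were taken here as a run. The labels do not call the runs batches, and 2 runs hold both genotypes. The cuts between runs are a choice made here. The number of iADKO mouse 1 stands apart from the rest of its run, which holds 3 fl/fl and 2 iADKO mice. That gap is as wide as the one used to split the fl/fl-only run from the next run. The results by run rest on this choice, and other cuts were not tested. In the run with 3 fl/fl and 2 iADKO mice, 37 of 41 members were lower in iADKO. The member median was −0.28, beside 0.03 over all genes. In the run with 2 and 2, which includes fl/fl mouse 5 and iADKO mouse 6, only 9 members were lower. The member median there was 0.06, beside 0.006 over all genes, so the lower levels did not hold within that run. *Psmb7* was lower in both, by −0.84 and −0.24, and *Psme4* by −0.41 and −0.19. *Psmd1* was at −0.51 and −0.02. With the run as a block, only *Psmb7* and *Psme4* fell (edgeR adjusted p = 0.0277 and 0.0318), 2 of 41 members (4.88%) beside 7.17% of all genes. The genotype difference in that fit rests on the 2 runs with both genotypes. Mice of a run with 1 genotype add nothing to it, so fewer mice are compared than in the main fit.

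The immunoproteasome subunits replace the constitutive ones at the 3 catalytic places, *Psmb8* for *Psmb5*, *Psmb9* for *Psmb6* and *Psmb10* for *Psmb7*. *Psmb8* was at 49.5 to 69.6 CPM in fl/fl (median 58.0) and at 65.5 to 79.4 CPM in iADKO (median 74.4), and rose (0.34 ± 0.08 SE, edgeR adjusted p = 0.00652). *Psmb9* (0.15, adjusted p = 0.243) and *Psmb10* (0.16, adjusted p = 0.0882) did not pass. The median of the 3 was 0.16. *Psmb9* shares 743 exonic bases with *Tap1* on the opposite strand.

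Ratios within a library do not depend on library scaling. The log2 ratio of *Psmb10* to *Psmb7* was −1.80 to −0.91 in fl/fl (mean −1.36 ± 0.29 SD, n = 7) and −0.89 to −0.20 in iADKO (mean −0.66 ± 0.24 SD, n = 6). All 6 iADKO mice were above every fl/fl mouse, by a narrow gap between fl/fl mouse 5 and iADKO mouse 6, and the difference was 0.70 (exact two-sided permutation test over 1716 splits, p = 0.00117, 0.0035 adjusted over the 3 ratios). *Psmb7* is part of this ratio, so its value here is not independent of the fold change given above. The difference was 0.32 in the run of 2 and 2 mice and 1.18 in the run of 3 and 2.

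The ratio of *Psmb8* to *Psmb5* was −0.003 to 1.35 in fl/fl and 0.83 to 1.10 in iADKO, with means of 0.59 ± 0.47 (SD, n = 7) and 1.04 ± 0.10 (SD, n = 6). Fl/fl mice 1 and 3 were lowest and fl/fl mouse 5 was the highest of all 13. The difference of 0.44 did not pass after adjustment (exact permutation p = 0.0443, adjusted 0.0664), and it was 0.08 and 0.88 within the 2 runs. *Psmb9* to *Psmb6* differed by 0.13 (exact permutation p = 0.283, adjusted 0.283), with overlapping groups, and by −0.20 and 0.45 within the runs.

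**Figure D5:**
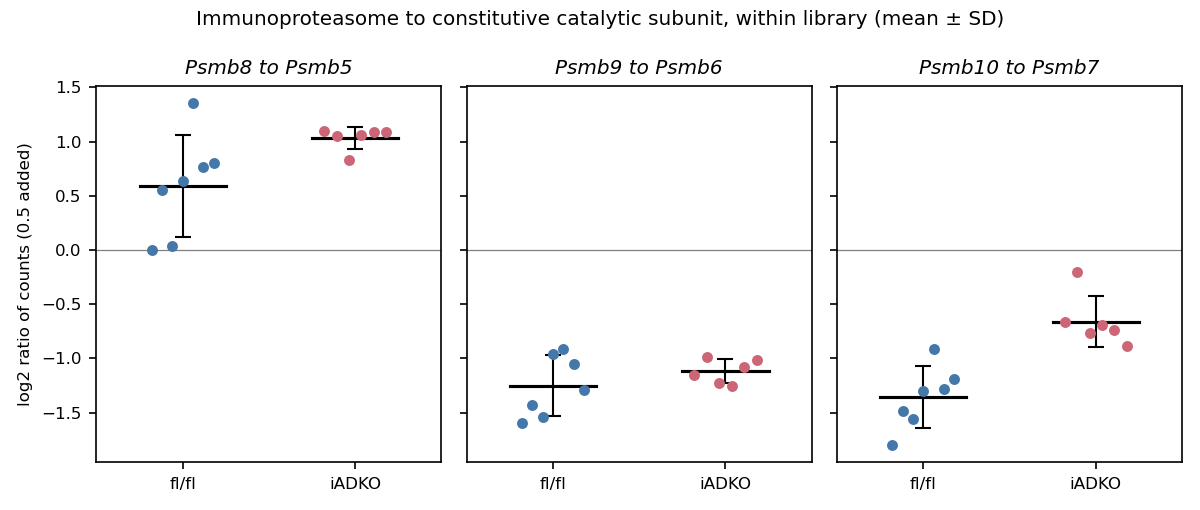
Log2 ratio of the counts of each immunoproteasome subunit to the constitutive subunit it replaces, with 0.5 added to each count, in each mouse, with the mean and 1 SD. *Psmb10* to *Psmb7* has no overlap (at most −0.91 in fl/fl, at least −0.89 in iADKO), and the other ratios overlap.

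Genes of the NRF1 route, by which cells adjust proteasome gene expression, moved in both directions, with 3 of 11 higher, 3 lower and 5 not past the threshold (median −0.10). Of all genes tested, 14.1% were higher and 16.3% lower. *Nfe2l1* itself was at 487.6 to 686.5 CPM in fl/fl (median 621.1) and at 413.6 to 471.7 CPM in iADKO (median 434.6). Every iADKO mouse was below every fl/fl mouse, and the log2 fold change was −0.47 ± 0.08 (SE, edgeR adjusted p = 0.00126). *Ngly1*, which removes the sugars of NRF1, fell (−0.29, adjusted p = 0.00315). *Mafk*, a partner of NRF1 on DNA, rose (0.27, adjusted p = 0.00788), as did *Nfe2l2*, which encodes the related NRF2 (0.17, adjusted p = 0.0218).

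Of 14 assembly and associated genes in the table, 2 rose, 3 fell and 9 did not pass (median −0.09), where 14.1% of all genes tested rose and 16.3% fell. *Paaf1* was not analysed here. *Sem1*, a small lid subunit outside the symbol rule, rose with no overlap (36.7 to 42.4 CPM in fl/fl, 42.7 to 51.3 CPM in iADKO, 0.26 ± 0.06 SE, edgeR adjusted p = 0.00409). *Ecpas*, an adaptor that tethers the proteasome, fell with no overlap (146.8 to 179.8 CPM and 124.8 to 145.7 CPM, −0.29 ± 0.06 SE, adjusted p = 0.00276). The ubiquitin receptor *Adrm1* fell (−0.27, adjusted p = 0.00994), and *Akirin2*, which brings proteasomes into the nucleus, rose (0.19, adjusted p = 0.0124).

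Among 9 ubiquitin and shuttle genes described here, 1 rose and 8 did not pass (median −0.05). For this list and the heat shock chaperones below, the shares over all genes tested are again 14.1% higher and 16.3% lower. *Rps27a*, which encodes ubiquitin fused to a ribosomal protein, rose (0.48, edgeR adjusted p = 0.00167). Near copies of this gene were not searched for. *Uba6*, a ubiquitin-activating enzyme, was at 0.15 (adjusted p = 0.0782), and the shuttle genes *Ubqln1* and *Ubqln2* were at −0.20 and −0.14 (adjusted p = 0.0921 and 0.0950), or at 0.003 and 0.06 on total counts alone. Of 10 heat shock chaperones 1 rose, *Bag3* (0.22, adjusted p = 0.0373), and 9 did not pass (median 0.22), among them *Hspa1b* (0.37, adjusted p = 0.0641), *Hspa8* (0.28, adjusted p = 0.0695) and *Hsp90aa1* (0.21, adjusted p = 0.0721).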

How the data were processed

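Strand-specific mRNA libraries from pmWAT of 13 mice were sequenced as paired-end 100 bp reads, checked with FastQC 0.12.1 and aligned with STAR 2.7.11a to mm39, per the study's methods and the submitters' processing notes. The authors deposited raw counts per gene and log2 values (rlog) from DESeq2. The counting tool, its strand setting and the annotation are not given in the sources used here. Symbols came from GENCODE vM39, which held 33184 of 33618 identifiers. Groups came from the labels.

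In R 4.3.3, the counts were filtered with filterByExpr, normalized by TMM and tested with edgeR 4.0.16's robust quasi-likelihood test over all genes, with Benjamini-Hochberg adjustment and a threshold of 0.05. Standard errors came from the log2 fold change and the F statistic. Levels are CPM after TMM, with a prior count of 2 on the log2 scale. Ratios of counts (0.5 added) were compared by exact permutation, whose smallest p is 0.000583. Near copies were searched with BLAST 2.17.0 (at least 95% identity over 200 bases). The tests were tested on simulated data. Between mice of a group, counts differed by more than sampling noise (chi-square per degree of freedom of at least 8.16). The errors are the spread between mice, which includes counting error.

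The members and gene lists were chosen with earlier results of these data known. Named in full were the members past the threshold with the 4 highest and 4 lowest fold changes (none was past it upward), *Psmb5*, *Psmb6*, *Psmb7*, *Psme1* and *Psme2*, and up to 4 genes per other list by smallest p. Some genes of the ubiquitin and shuttle list are not reported here. Alternatives were DESeq2 1.42.0 size factors in edgeR, total counts alone, the DESeq2 Wald test, no filter, at least 10 counts in every library, the replicate number or the run of animal numbers as a block, limma 3.58.1 on rlog, and each mouse left out. Deviations of same-numbered mice correlated at −0.03 to 0.22, not above 0.1 in every pair, so the numbers were not taken as pairs.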

Additional observations from a re-analysis of the deposited data

Results flagged for a closer look

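In 126 groups of mice (each tested member, named list gene and ratio, in each genotype), 10 held a mouse far from the rest, its gap to the nearest mouse being a large part of the range. Chance gives about 1 in 20 if groups are independent. These groups share the same mice, so the number flagged cannot be judged against that rate. Fl/fl mouse 5 accounts for 5 of them, as the lowest fl/fl mouse in *Psma6* (96.1 CPM), *Psmd13* (53.6 CPM), *Psmd14* (45.1 CPM), *Psmd3* (85.0 CPM) and *Adrm1* (67.9 CPM). Of the others, *Mafk* was highest in fl/fl mouse 2 (37.8 CPM), *Psmb5* lowest in iADKO mouse 1 (31.8 CPM) and *Psmd11* highest in iADKO mouse 6 (76.0 CPM). The log2 ratio of *Psmb8* to *Psmb5* was lowest in iADKO mouse 3 (0.83) and that of *Psmb10* to *Psmb7* highest in iADKO mouse 2 (−0.20). Without iADKO mouse 2, the *Psmb10* to *Psmb7* difference was 0.61 (exact permutation p = 0.00379).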

How the results depend on the processing

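The number of lower members was 12, and 15, 9, 12, 17 and 14 with DESeq2's size factors, no filter, at least 10 counts in every library, the DESeq2 Wald test and limma on rlog. In these 5 fits that was 36.6%, 21.4%, 29.3%, 40.5% and 34.1% of members, beside 17.4%, 7.09%, 17.7%, 9.58% and 17.4% of all genes. It moved to 1 on total counts alone, 2 with the run of animal numbers as a block and 26 with both fl/fl mouse 5 and iADKO mouse 6 left out (2.44%, 4.88% and 63.4% of members, beside 7.62%, 7.17% and 23.3% of all genes). With the replicate number as a block and fl/fl mouse 7 left out it was 6 (14.6%, beside 14.7% of all genes), and the numbers were not taken as pairs. Over the fits that leave out 1 mouse it was 6 to 19 (14.6% to 46.3%, beside 13.1% to 19.7% of all genes). The number of higher members was 14 on total counts alone (34.1%, beside 44.2% of all genes). It was 1 with at least 10 counts in every library, and 0 to 1 with 1 mouse left out. The member median was −0.14 to −0.10 with 1 mouse left out, and turned to 0.090 on total counts alone. Within the runs of animal numbers it was 0.059 and −0.28.

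The *Psmb10* to *Psmb7* difference was 0.61 to 0.78 with 1 mouse left out and 0.73 with the replicate block (exact sign permutation p = 0.0312, the smallest it can give), and 0.32 and 1.18 within the runs. The *Psmb8* to *Psmb5* difference was 0.48 with the replicate block (exact p = 0.0625), 0.081 and 0.88 within the runs, and 0.35 to 0.57 with 1 mouse left out, where the unadjusted exact p passed the threshold only without fl/fl mouse 5 or 7. The *Psmb9* to *Psmb6* difference was 0.08 to 0.19 with 1 mouse left out, and −0.20 and 0.45 within the runs.

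Of the 12 lower members, 10 had a negative log2 fold change in every fit, and *Psmb2* (0.028) and *Psmd11* (0.026) turned positive on total counts alone, as did *Psmb5* (0.086), *Ubqln1* (0.0030) and *Ubqln2* (0.061), which are not among the 12. Within the run of 2 and 2 mice, only 6 of the 12 were lower in iADKO, against 12 in the run of 3 and 2. In the fits with 1 mouse left out, 6 of the 12 passed in all 13 (*Psmb7*, *Psme4*, *Psmd1*, *Psma6*, *Psma3* and *Psmd5*). Of the rest, *Psmc1* and *Psmd12* passed in 8 of 13, *Psmb2* in 5, *Psmd11* in 3, and *Psmd4* and *Psmc5* in only 2. *Psmb6* ran from −0.019 to 0.068 with 1 mouse left out, below 0 without fl/fl mouse 5 or iADKO mouse 3. Of 35 genes named, *Psmb7*, *Psmb8*, *Nfe2l1* and *Rps27a* kept their call in every alternative run. The causes of these changes were not tested.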
